A study of Mus musculus with 8 samples.

Results

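Scavenger receptors and lipoprotein receptors are the surface and lysosomal proteins with which liver cells take up modified lipoproteins, lipids, haemoglobin and cell debris. The 10 genes described here, out of 55450 in the count table, were the rows with the symbols Msr1, Marco, Cd36, Scarb1, Scarb2, Cd68, Olr1, Stab1, Cd163 and Lrp1. The rule uses the symbols alone. Many scavenger receptors are not shut off when the cell fills with cholesterol, so a macrophage that keeps taking up modified lipoprotein can turn into a foam cell. In the liver, Kupffer cells and sinusoidal endothelial cells carry out most of this clearance, and Lrp1 on hepatocytes also removes remnant lipoproteins.

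Single liver cells of 8 wild-type (WT) C57BL/6 mice were measured, 1 droplet library per mouse, after enzymatic dissociation, lysis of red cells and removal of dead cells. The 2 control mice received normal diet and drinking water. The 3 HFD+F+CCl4 mice were fed a high-fat diet and the 3 WD+F+CCl4 mice a western diet, and both models also drank fructose solution and had CCl4, a hepatotoxin, injected into the peritoneum. The diet and the toxin were given together in every model mouse, so their parts cannot be told apart. The sources used here do not state the age of the mice. Each mouse counted as 1 replicate, and the unit was CPM, the UMIs of a gene per 1000000 UMIs of the same cells, where a UMI tags a single captured mRNA molecule at its 3' end.

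The control libraries held 6135827 and 36699315 UMIs and the model libraries 46275590 to 64855024, and kept control cells had medians of 992.5 and 2397 UMIs against 3159 to 4278 in the models. Of 88581 barcodes, 80474 passed the limits of more than 500 genes and under 25% mitochondrial UMIs. Among the kept barcodes, 1467 carried a sequence that also occurred in another library. Cell types were named from marker genes after clustering without the 10 receptors, and a name stands for those markers only. Monocytes, macrophages, Kupffer cells and conventional dendritic cells together made the mononuclear phagocytes, 435 and 677 cells in the control mice and 6103 to 7546 in each model mouse. Kupffer cells were scarce outside HFD+F+CCl4 replicates 1 and 2 and WD+F+CCl4 replicate 3, with 7 and 0 cells in the control mice, and patrolling monocytes of HFD+F+CCl4 replicate 1 came mostly from a cluster of 3265 cells led by the stress genes Hspa1b, Hspa1a and Fosb. A pair of clusters led by hepatocyte genes, which took no name, came almost wholly from the control mice and made up 17.6% and 49.3% of their cells. Their best-scoring markers were those of NK cells, at 1.82 in the cluster mostly from control replicate 1 and 1.71 in that mostly from replicate 2. What these cells are was not settled, and they are not part of the T or NK level given below.

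On GRCm38, the build of the files, the class A receptors are Msr1 on chromosome 8 (39581685 to 39642673) and Marco on chromosome 1 (120474538 to 120505024), and the class B receptors are Cd36 (17781690 to 17888801), Scarb1 (125277087 to 125341094) and Scarb2 (92441314 to 92506833), all on chromosome 5. Cd68 lies on chromosome 11 (69664213 to 69666153), Stab1 on chromosome 14 (31139013 to 31168641), Lrp1 on chromosome 10 (127538161 to 127621148), and both Olr1 (129485244 to 129507165) and Cd163 (124304656 to 124330527) on chromosome 6. All are protein-coding, and all but Cd163 lie on the minus strand. RefSeq promoter entries on GRCm38.p6 were found for 8 of the 10, with Msr1 and Scarb1 missing.

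The 250 bases before the start of 3 genes are shown, because Cd68 and Lrp1 were the receptors that rose in mononuclear phagocytes in both models and Marco had its highest level in Kupffer cells. All 3 lie on the minus strand and are given 5′ to 3′, at chr11:69666171-69666420 for Cd68, chr10:127621149-127621398 for Lrp1 and chr1:120505025-120505274 for Marco. Capitals mark GAGGAA, the core bound by PU.1, the myeloid ETS factor, searched on both strands.
Cd68: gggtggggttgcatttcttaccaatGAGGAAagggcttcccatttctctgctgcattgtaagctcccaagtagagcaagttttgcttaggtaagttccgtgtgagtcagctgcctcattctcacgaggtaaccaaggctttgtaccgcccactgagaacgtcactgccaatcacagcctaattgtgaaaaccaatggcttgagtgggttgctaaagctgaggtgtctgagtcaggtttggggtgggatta
Lrp1: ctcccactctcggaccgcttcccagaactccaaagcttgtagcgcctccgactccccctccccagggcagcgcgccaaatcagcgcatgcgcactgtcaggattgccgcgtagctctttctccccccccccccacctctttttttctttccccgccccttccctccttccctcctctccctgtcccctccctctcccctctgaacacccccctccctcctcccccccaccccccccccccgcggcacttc
Marco: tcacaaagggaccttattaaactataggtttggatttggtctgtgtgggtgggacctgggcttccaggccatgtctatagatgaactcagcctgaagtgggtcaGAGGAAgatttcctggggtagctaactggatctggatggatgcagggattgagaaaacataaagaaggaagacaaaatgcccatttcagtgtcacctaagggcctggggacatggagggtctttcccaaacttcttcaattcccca
GAGGAA stood 225 bases before the start of Cd68 and 146 bases before that of Marco, and Lrp1 had none in this window. It was found in 4 of the 8 promoters (Marco, Olr1, Cd68 and Stab1) and in 23.3% of all 32851 promoters of the same length. The AP-1 site TGANTCA was found in Olr1 and Cd68 and in 6.75% of all promoters. TATAAA, held by 12.4% of all promoters, was in none of the 8. The Lrp1 window was 67.2% G or C, against 49.2% for Cd68 and 47.6% for Marco. These matches are letters in a window and say nothing of binding.

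The receptors were read in different cells of the same livers, and the levels by cell type are given as a description, with no test. Levels are compared between cell types for 1 gene at a time. Averaged over all mice with at least 20 cells, Msr1, Marco, Lrp1 and Cd163 led in Kupffer cells, Cd36 and Stab1 in endothelial cells, Cd68 in macrophages, Scarb1 in classical monocytes, Scarb2 in stellate or mesenchymal cells and Olr1 in patrolling monocytes.

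**Figure D1:**
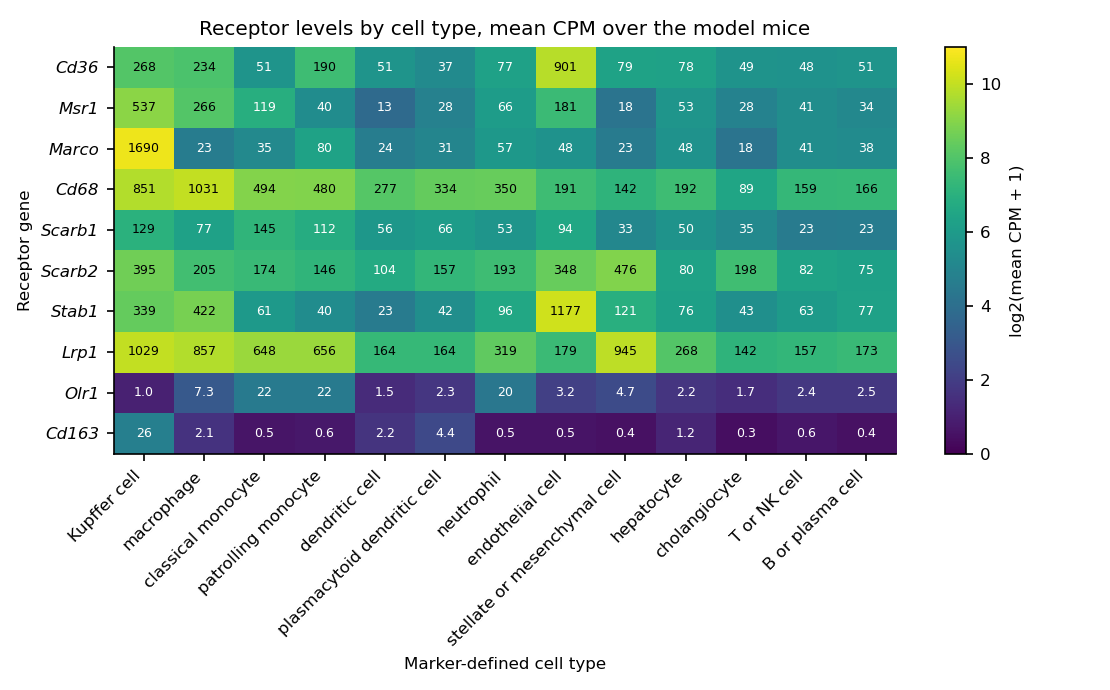
Mean level of each receptor (rows) in 13 marker-defined cell types (columns) over the model mice with at least 20 cells of the type. Numbers are CPM and colour is log2(mean CPM + 1). Marco was highest in Kupffer cells (1690), Stab1 and Cd36 in endothelial cells (1177 and 901), and Cd68 in macrophages (1031).

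Msr1 encodes scavenger receptor A, a trimeric receptor of macrophages for modified LDL and bacterial surfaces. In Kupffer cells it was read at 488, 487 and 428 CPM in the 3 HFD+F+CCl4 mice and 633 and 647 across WD+F+CCl4 replicates 2 and 3. The Kupffer values lay above those of every other type, among which macrophages came next with 266 ± 61.8 CPM (SD, n = 6) and did not overlap with them. Endothelial cells (55.3 to 322 CPM in the models) overlapped with both macrophages and classical monocytes (87.5 to 162 CPM). Dendritic cells had the lowest mean, 12.8 ± 2.67 CPM (SD, n = 6). Macrophages, which were more numerous, held 41.4% to 69.0% (median 52.8%) of the Msr1 UMIs of a model mouse. The genes most like Msr1 over 89 sums of mouse and cell type were Lgmn (r = 0.83), Lamp1 (r = 0.82) and Ifi204 (r = 0.81).

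Marco encodes a class A receptor with a collagenous stalk that binds bacteria and particles. In Kupffer cells it reached 1740.2, 799 and 199.7 CPM in the 3 HFD+F+CCl4 mice and 616 and 5093 across WD+F+CCl4 replicates 2 and 3. The Kupffer values spanned a wide range and none overlapped with another type. Patrolling monocytes followed with 170.2, 62.9 and 34.9 CPM in the HFD+F+CCl4 mice and 6.97, 37.9 and 168 CPM in the WD+F+CCl4 mice. T or NK cells of the same mice, which should lack the receptor, gave 91.5, 10.6 and 17.5 and 0.21, 3.88 and 120.2 CPM. Patrolling monocytes lay above T or NK cells in 6 of 6 model mice, by 6.76 to 78.7 CPM, macrophages in 1 of 6 and dendritic cells in 0 of 6. Neutrophils (0.838 to 181 CPM in the models) and hepatocytes (0 to 179 CPM) overlapped with patrolling monocytes, so this level was not particular to patrolling monocytes. With each cell thinned to 1000 UMIs, 9.91% to 47.8% of Kupffer cells in the model mice held a Marco UMI, against 0.0305% to 14.1% of T or NK cells. The Marco level of T or NK cells was highest in the 2 libraries richest in Kupffer cells, HFD+F+CCl4 replicate 1 and WD+F+CCl4 replicate 3. The genes most like Marco were Cd5l (r = 0.88), Vsig4 (r = 0.83) and Clec4f (r = 0.83), 3 Kupffer cell markers.

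Marco in all kept cells of the control mice came to 3 UMIs among 35823037 in replicate 1 and 1 UMI among 5305581 in replicate 2. Control Kupffer cells came from 1 mouse. The 7 cells of control replicate 1 held 23354 UMIs and 0 of Marco. That allows up to 128 CPM when 3 counts are taken as the limit, and up to 158 CPM by the exact 95% Poisson interval. Both lie below 199.7 CPM, the lowest value among the 5 model mice with at least 20 Kupffer cells. WD+F+CCl4 replicate 1, with 8 Kupffer cells, is not among those mice. Those 7 cells held 13 UMIs of Msr1 (557 CPM, exact 95% Poisson interval 296 to 952) and 16 of Lrp1 (685 CPM, 392 to 1113). Intervals and limits cover counting error only.

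Cd163, the haemoglobin-haptoglobin scavenger receptor of resident macrophages, was low in the model mice. Kupffer cells of the model mice gave 26.8, 30.6 and 6.34 CPM in HFD+F+CCl4 and 22.2 and 42.2 CPM in WD+F+CCl4 replicates 2 and 3. The same 7 control Kupffer cells held 12 UMIs of Cd163, or 514 CPM (exact 95% Poisson interval 266 to 898). That interval lies wholly above the model values, in 1 mouse and 7 cells, and the difference was not tested. Plasmacytoid dendritic cells, next in the order, ranged from 1.28 to 14.9 CPM and overlapped with Kupffer cells, and all other types averaged under 4.38 CPM. Among the closest genes were Tlr12 (r = 0.66) and Colgalt1 (r = 0.60).

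Cd36, a class B receptor that takes up oxidised LDL and long-chain fatty acids, was highest in endothelial cells. Endothelial cells held 327 and 462 CPM in the 2 control mice, 1433, 919 and 281 in the 3 HFD+F+CCl4 mice and 155 and 1718 across WD+F+CCl4 replicates 2 and 3. Among the model mice the values were high in HFD+F+CCl4 replicates 1 and 2 and WD+F+CCl4 replicate 3, which gave 1480, 203 and 1423 endothelial cells and lay above both controls, and low in the other 2, which gave 36 and 25 cells and lay below both. In macrophages Cd36 was 69.4 CPM in control replicate 1, 312, 292 and 54.2 in the 3 HFD+F+CCl4 mice and 309, 179 and 256 across the 3 WD+F+CCl4 mice. HFD+F+CCl4 replicate 3 stood below the other 5 model mice. Kupffer cells (189 to 340.0 CPM in the models) and patrolling monocytes (154 to 229.8 CPM) overlapped with macrophages, and patrolling monocytes lay above all lower-ranked types except the highest hepatocyte value, 173 CPM. Its nearest genes were Plod1 (r = 0.79), Dse (r = 0.73) and Rufy3 (r = 0.72).

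Scarb1, the HDL receptor SR-BI, differed little between neighbours in the order of cell types, which overlapped in every step down to stellate or mesenchymal cells. Classical monocytes led with 179 and 159 CPM in the 2 control mice, 169.8, 142 and 129.9 in the 3 HFD+F+CCl4 mice and 144, 131 and 154 across the 3 WD+F+CCl4 mice. Kupffer cells (114 to 148 CPM in the models) and patrolling monocytes (87.8 to 135 CPM) overlapped with the leading type. Hepatocytes, in which SR-BI is well known for selective uptake of HDL cholesterol, gave 23.8 to 65.7 CPM. T or NK cells were lowest, at 17.5 to 30.3 CPM. The most similar genes were Acer3 (r = 0.84), Ddi2 (r = 0.75) and Cln8 (r = 0.75).

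Scarb2 encodes LIMP-2, the lysosomal membrane protein that carries glucocerebrosidase to lysosomes. Stellate or mesenchymal cells led, with 453 and 498 CPM in HFD+F+CCl4 replicates 1 and 2, the only libraries with 20 such cells. Kupffer cells (338 to 461 CPM) overlapped with them and with endothelial cells (316 to 401 CPM), and these 3 types lay above all others apart from the highest cholangiocyte value, 318 CPM, which fell within the endothelial range. Its nearest genes were Leprot (r = 0.82), Tpp1 (r = 0.81) and Tcn2 (r = 0.80), of which Tpp1 encodes a lysosomal peptidase.

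Cd68, macrosialin, is a lysosomal glycoprotein used as a macrophage marker. Macrophages held 374 CPM in control replicate 1, 1008, 1048 and 704 in the 3 HFD+F+CCl4 mice and 1449, 949.7 and 1028 across the 3 WD+F+CCl4 mice. The single control mouse with 20 macrophages lay below every model mouse. Kupffer cells (777 to 899 CPM) overlapped with macrophages, and classical monocytes (430.3 to 672 CPM in the models) overlapped with patrolling monocytes (454 to 505 CPM). Macrophages carried 41.6% to 65.8% (median 51.1%) of the Cd68 UMIs of a model mouse. The closest genes were Ctss (r = 0.88), Ctsz (r = 0.88) and Cers6 (r = 0.85), of which Ctss and Ctsz encode cathepsins.

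Stab1, stabilin-1, clears altered proteins and matrix fragments in sinusoidal endothelium and in some macrophages. Endothelial cells gave 1722 and 1736 CPM in the 2 control mice, 1440.3, 1209 and 986 in the 3 HFD+F+CCl4 mice and 738 and 1512 across WD+F+CCl4 replicates 2 and 3. These values lay above those of macrophages (155 to 625 CPM in the models) and Kupffer cells (252 to 495 CPM) without overlap, and macrophages and Kupffer cells overlapped with each other. HFD+F+CCl4 replicate 3 again had the lowest macrophage value. All other types averaged between 22.9 and 121 CPM, and T or NK cells, which should lack the receptor, gave 19.0 to 124 CPM in the models and 58.7 and 165 CPM in the control mice. The genes nearest to Stab1 were Maf (r = 0.89), Mrc1 (r = 0.87) and Ptgs1 (r = 0.84), of which Mrc1 encodes the mannose receptor.

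Lrp1, the large endocytic receptor for apolipoprotein E remnants and alpha-2-macroglobulin, was read widely. Kupffer cells held 913 to 1154 CPM, stellate or mesenchymal cells 1028 and 861 CPM and macrophages 548 to 1033 CPM, in ranges that overlapped. Patrolling (597 to 772 CPM) and classical monocytes (528 to 803 CPM) overlapped with each other and lay above all types that ranked lower. Hepatocytes gave 209.9 to 360.3 CPM. Its most similar genes were Itgb5 (r = 0.90), Lamp1 (r = 0.86) and Csf1r (r = 0.86), and Lamp1 was also among those of Msr1.

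Olr1, the lectin-like oxidised LDL receptor LOX-1, was the receptor with the fewest UMIs after Cd163, 3167 in the model mice. Patrolling monocytes held 28.8 CPM in control replicate 1, 21.8, 17.8 and 31.8 in the 3 HFD+F+CCl4 mice and 15.5, 21.3 and 25.5 across the 3 WD+F+CCl4 mice. Classical monocytes of the models (15.8 to 30.5 CPM) and neutrophils (7.13 to 53.2 CPM) overlapped with them, and Kupffer cells were lowest (0 to 3.17 CPM). In macrophages Olr1 was 1.59 to 3.24 CPM in 5 model mice and 31.4 CPM in HFD+F+CCl4 replicate 3. A finer clustering placed 595 cells in an unnamed cluster led by Il1rn, Cxcl10 and Cxcl9, of which 418 came from that mouse, and Olr1 there was 33.3 CPM in control replicate 1, 60.8, 106 and 95.1 in the 3 HFD+F+CCl4 mice and 15.6 and 32.8 across WD+F+CCl4 replicates 2 and 3. The genes closest to Olr1 were Clec4e (r = 0.82), Tnfrsf1b (r = 0.81) and Trem3 (r = 0.80).

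These correlations were taken over sums of mouse and cell type that share libraries and depth, so they describe likeness only.

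**Figure D2:**
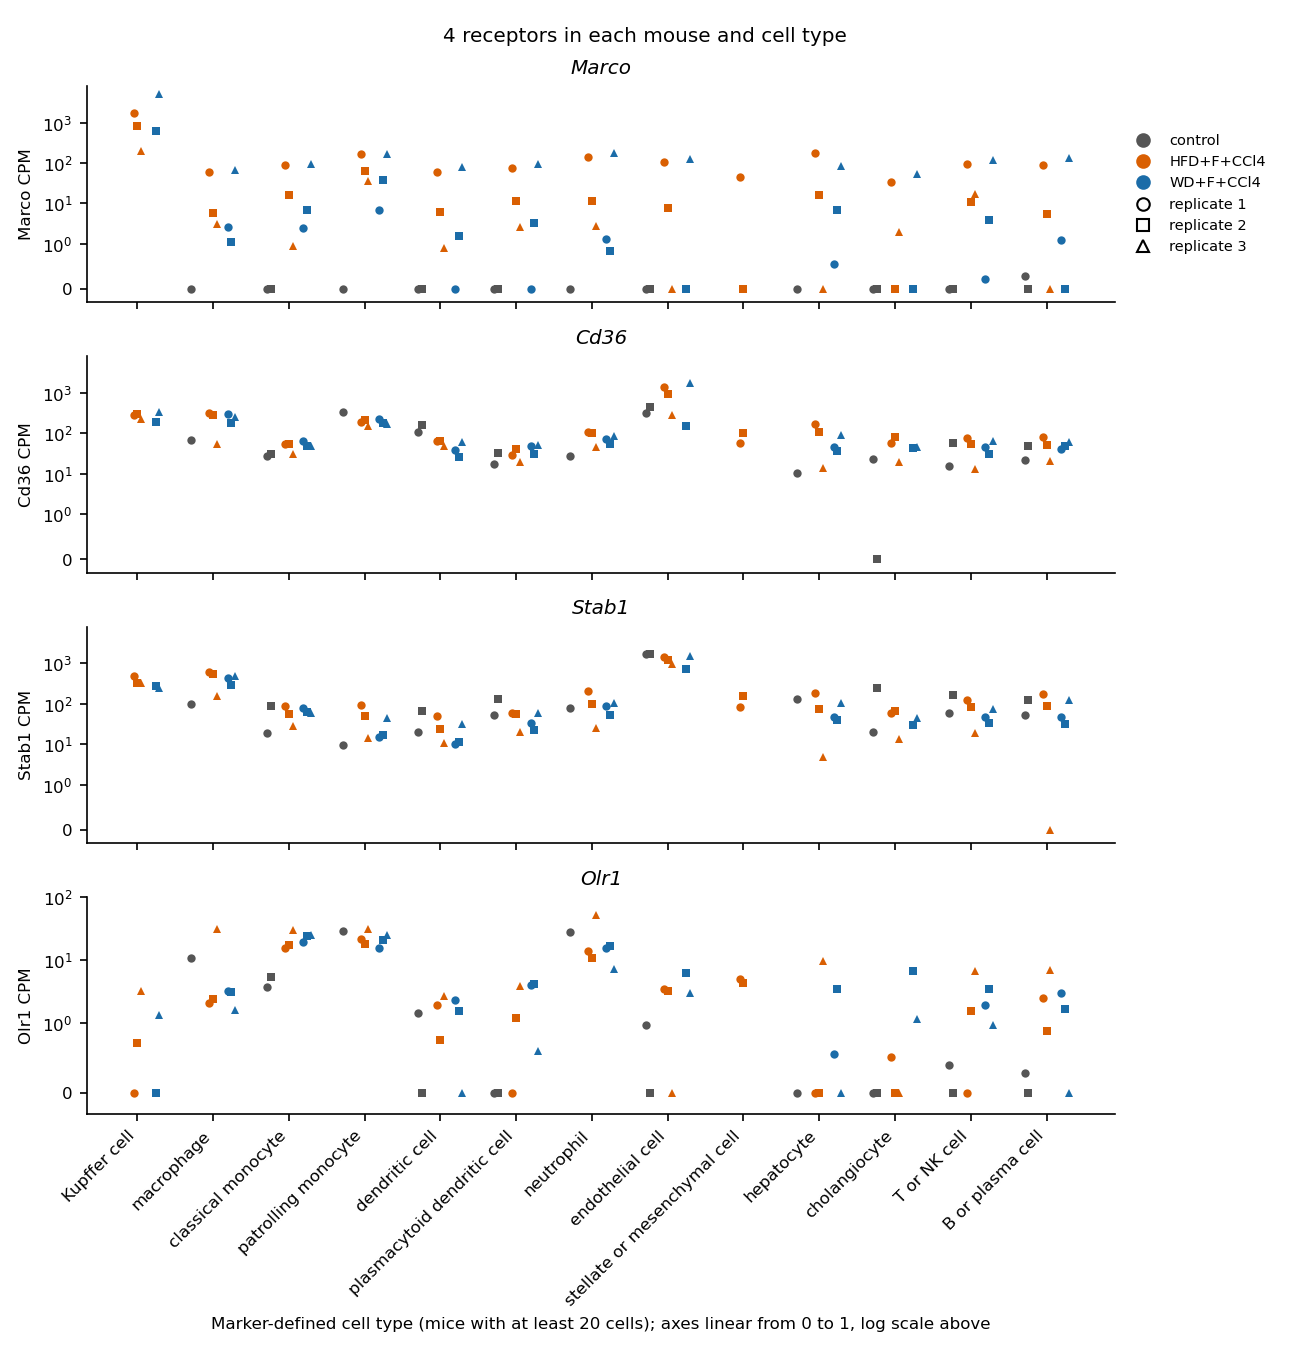
CPM of Marco, Cd36, Stab1 and Olr1 in each mouse and cell type (mice with at least 20 cells). Colour gives the group and marker shape the replicate, and each axis is linear from 0 to 1 and logarithmic above. Marco was highest in Kupffer cells, and Cd36 in endothelial cells ranged from 155 to 1718 in the model mice.

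The next comparison asked whether receptor transcripts differed between each model and control in the mononuclear phagocytes. The study was about monocytes, Kupffer cells and dendritic cells as named from its own clusters. The cells grouped here by markers need not be the same ones. Cd68 and Lrp1 were higher in both models, and Msr1 and Scarb2 were also higher in the WD+F+CCl4 mice. No receptor was lower in either model by this test. UMI counts summed per mouse were compared with edgeR's quasi-likelihood test, with Benjamini-Hochberg adjustment over all 17024 genes tested. Both comparisons share the 2 control mice. Each p-value sets a difference against a spread between mice that was estimated over all groups together.

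Cd68 in mononuclear phagocytes was 258 and 215 CPM in the 2 control mice, 769, 772 and 502 in the 3 HFD+F+CCl4 mice and 877, 624 and 802 across the 3 WD+F+CCl4 mice. Every model mouse lay above both control mice. Its log2 fold change was 1.56 (SE 0.26, adjusted p = 0.0133) in HFD+F+CCl4 and 1.80 (SE 0.27, adjusted p = 0.00535) in WD+F+CCl4. Lrp1 was 277 and 248 CPM in the 2 control mice, 743, 721 and 463 in the 3 HFD+F+CCl4 mice and 758, 769.8 and 721 across the 3 WD+F+CCl4 mice, again without overlap between control and model mice. Lrp1 changed by 1.33 (SE 0.23, adjusted p = 0.0142) and 1.62 (SE 0.23, adjusted p = 0.00513). In HFD+F+CCl4 neither call held without either control mouse, when 0 receptors were called.

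Msr1 was 75.3 and 59.9 CPM in the 2 control mice, 161, 182 and 102 in the 3 HFD+F+CCl4 mice and 196, 156 and 271 across the 3 WD+F+CCl4 mice, higher in 6 of 6 model mice than in either control mouse. The change was 1.69 (SE 0.32, adjusted p = 0.0121) in WD+F+CCl4 and 1.14 (SE 0.31, adjusted p = 0.0636) in HFD+F+CCl4, which did not pass. Scarb2 was 84.9 and 139 CPM in the 2 control mice, 239, 187 and 124 in the 3 HFD+F+CCl4 mice and 194, 169.6 and 207 across the 3 WD+F+CCl4 mice. HFD+F+CCl4 replicate 3 overlapped with the control mice, and the WD+F+CCl4 change was 0.94 (SE 0.26, adjusted p = 0.0461), against 0.81 (SE 0.26, adjusted p = 0.0928) in HFD+F+CCl4. The Scarb2 call was lost when sums were scaled by library size alone or with RLE, and in 6 of the 8 fits that left out 1 mouse. The Msr1 call was lost without either control mouse.

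The other 6 receptors did not pass in either model. Stab1 was 24.2 and 74.0 CPM in the 2 control mice, 412, 329 and 66.8 in the 3 HFD+F+CCl4 mice and 183, 132 and 302 across the 3 WD+F+CCl4 mice, a difference of 2.69 (SE 0.78, adjusted p = 0.0732) and 2.39 (SE 0.77, adjusted p = 0.0776). HFD+F+CCl4 replicate 3 lay below the higher control mouse, and without that mouse Stab1 passed in both models and 5 receptors were called in each. T or NK cells of the control mice held more Stab1 than the phagocytes of the same mice, 58.7 and 165 CPM. Cd36 was 74.1 and 132 CPM in the 2 control mice, 246, 220.3 and 75.8 in the 3 HFD+F+CCl4 mice and 157, 112 and 216 across the 3 WD+F+CCl4 mice, with groups that overlapped (0.91, SE 0.47, adjusted p = 0.274, and 0.83, SE 0.47, adjusted p = 0.284). Scarb1 was 126 and 106 CPM in the 2 control mice, 102, 82.3 and 82.8 in the 3 HFD+F+CCl4 mice and 107, 92.2 and 105 across the 3 WD+F+CCl4 mice. The HFD+F+CCl4 mice lay below both control mice and the WD+F+CCl4 mice overlapped with them, and the differences were -0.35 (SE 0.17, adjusted p = 0.247) and -0.10 (SE 0.17, adjusted p = 0.771).

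Marco was 0 in both control mice, 0 of 3912936 UMIs, and 204, 45.8 and 12.0 CPM in the HFD+F+CCl4 and 2.91, 11.1 and 839 CPM in the WD+F+CCl4 mice. All 6 model mice lay above 0, where 3 counts over the control group allow up to 0.767 CPM. The WD+F+CCl4 level came mostly from replicate 3 and the HFD+F+CCl4 level mostly from replicate 1, so no fold is given. The spread among model mice was wide, and the adjusted p was 0.306 and 0.175. The summed level of 6 Kupffer cell markers moved alongside, from 12.3 to 45.4 CPM in control and 62.8 to 2107 CPM in model mononuclear phagocytes, with up to 3 of the 6 at 0 in a control mouse. Its part in the difference was not tested. Olr1 was 3.89 and 8.81 CPM in the 2 control mice, 6.97, 5.17 and 24.5 in the 3 HFD+F+CCl4 mice and 11.9, 11.7 and 8.34 across the 3 WD+F+CCl4 mice, and Cd163 was 7.17 and 12.3 CPM in the 2 control mice, 3.20, 2.77 and 0.579 in the 3 HFD+F+CCl4 mice and 1.22, 1.27 and 9.44 across the 3 WD+F+CCl4 mice. For Cd163 the HFD+F+CCl4 mice lay below both control mice (-2.02, SE 1.06, adjusted p = 0.278), and the other ranges overlapped with control. Neither gene passed.

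**Figure D3:**
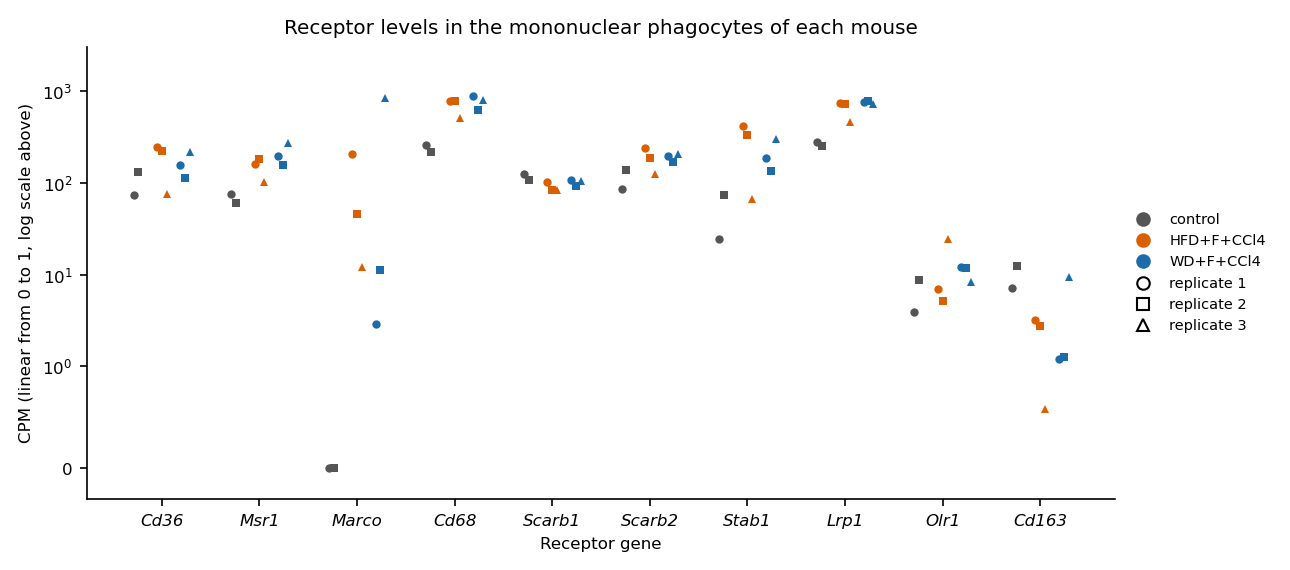
CPM of each receptor in the mononuclear phagocytes of each mouse, on an axis that is linear from 0 to 1 and logarithmic above. Colour gives the group and marker shape the replicate. For Cd68, Lrp1 and Msr1 all 6 model mice sit above both control mice, and Marco is at 0 in both control mice.

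In all, 2 of 10 receptors were called in HFD+F+CCl4, where 7.16% of all genes tested were, and 4 of 10 in WD+F+CCl4, where 12.1% were. The median log2 fold change of the 10 was 1.23 and 1.39, also with Marco taken against 0.767 CPM, against 0.09 and 0.10 over all genes. Without the 2 libraries richest in Kupffer cells, 2 and 3 receptors were called. In these sums the mix of cell types and the level per cell cannot be told apart. Macrophages made up 4.37% and 7.09% of control and 27.5% to 47.6% of model mononuclear phagocytes, dendritic cells 31.3% and 54.9% against 6.05% to 16.9%, and patrolling monocytes 2.76% and 6.94% against 20.4% to 43.9%. Hepatocyte markers in the same cells summed to 945 and 1124 CPM in control and 83.8 to 520.3 CPM in model mice, with none of the 8 at 0, and their part was not tested.

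The same test inside single cell types was run in 7 types with 20 cells in both control mice. Cycling cells, a state that several types can share, had 31 and 34 cells in the control mice and were not tested. The test called 11 differences in HFD+F+CCl4 and 15 in WD+F+CCl4, all higher in the model except Cd36 in dendritic cells. Of these, 6 in each model fell in lymphocytes, in which these receptors are not known as typical products. In T or NK cells Cd68, Lrp1 and Msr1 were called in both models, 3 of 9 receptors tested where 5.33% and 10% of genes were called, and the same 3 were called in B or plasma cells, 3 of 8 where 6.71% and 12% were.

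Cd68 in T or NK cells was 18.2 and 32.1 CPM in the 2 control mice, 178, 121 and 108 in the 3 HFD+F+CCl4 mice and 219, 173 and 155 across the 3 WD+F+CCl4 mice, a difference of 2.53 (SE 0.29, adjusted p = 0.00435) and 3.10 (SE 0.30, adjusted p = 0.00211). Lrp1 was 16.8 and 46.5 CPM in the 2 control mice, 174, 123 and 99.4 in the 3 HFD+F+CCl4 mice and 177, 233 and 132 across the 3 WD+F+CCl4 mice, and Msr1 was 7.56 and 11.8 CPM in the 2 control mice, 56.6, 31.1 and 27.0 in the 3 HFD+F+CCl4 mice and 40.4, 43.1 and 45.6 across the 3 WD+F+CCl4 mice. In all 3 genes each model mouse lay above both control mice. Lrp1 differed by 2.23 (SE 0.42, adjusted p = 0.0214) and 2.82 (SE 0.43, adjusted p = 0.00615), and Msr1 by 2.06 (SE 0.31, adjusted p = 0.0107) and 2.40 (SE 0.31, adjusted p = 0.00377). Without control replicate 1 the Msr1 calls were lost in both models and the Lrp1 call in HFD+F+CCl4, which was also lost without HFD+F+CCl4 replicate 2. In B or plasma cells Cd68 was 15.9 and 32.2 CPM in the 2 control mice, 212, 151 and 119 in the 3 HFD+F+CCl4 mice and 223, 142 and 151 across the 3 WD+F+CCl4 mice, again without overlap (3.25, SE 0.34, adjusted p = 5.87e-05, and 3.31, SE 0.32, adjusted p = 1.37e-05). Msr1 in B or plasma cells was 4.02 and 18.1 CPM in the 2 control mice, 37.0, 32.7 and 6.99 in the 3 HFD+F+CCl4 mice and 44.6, 35.6 and 48.3 across the 3 WD+F+CCl4 mice. HFD+F+CCl4 replicate 3, with 33 such cells, lay below control replicate 2. The T or NK levels were 15.7% to 27.8% of the mononuclear phagocyte level for Cd68 in the model mice, 17.1% to 30.2% for Lrp1 and 16.8% to 35.3% for Msr1. For Msr1 in B or plasma cells the range was 6.85% to 23.0%. The 7 macrophage markers, none at 0, summed to 35.6 and 39.3 CPM in control and 678 to 2305 CPM in model T or NK cells. Free RNA and doublets cannot be told apart from the lymphocytes' own transcripts here, and the source of these UMIs was not tested. The T or NK level is given beside each type that follows, at median depths of 1159 and 2978 UMIs per control cell and 2179 to 3085 in the models. Classical monocytes had 878 and 4508 in the control mice and 4399.5 to 6628 in the models, and macrophages 1084 and 3805 against 5152.5 to 6678. Endothelial cells had 988 and 1220 against 1819 to 4803. These levels are thus set side by side at unlike depths, whose part was not tested.

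The lymphocytes of control and model mice fell mainly in different clusters. Of the T or NK cells, 4108 of 4385 in control replicate 1 were in a cluster led by Xcl1, Txk and Il2rb, against 357 of 1633 in WD+F+CCl4 replicate 3. A finer clustering placed 3163 and 824 control cells, and 7 to 37 cells of each model mouse, in an unnamed cluster led by Cxcr6, Il2rb and Cd226. It also split the B or plasma cells, with 2216 and 141 control cells and 0 to 16 cells of each model mouse in a cluster led by Ebf1, Ighd and Cd79a, and 93 and 74 control cells and 31 to 1431 cells of each model mouse in a cluster led by Ighg2b, Igkc and Ighg2c. The part of this split in the lymphocyte differences was not tested. In B or plasma cells the Msr1 calls were lost without control replicate 1, and in HFD+F+CCl4 also without HFD+F+CCl4 replicate 2.

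In macrophages, where control replicates 1 and 2 gave 48 and 19 cells, a limit of 10 cells chosen after the data were seen allowed the test. Cd68 was 374 and 511 CPM in the 2 control mice, 1008, 1048 and 704 in the 3 HFD+F+CCl4 mice and 1449, 949.7 and 1028 across the 3 WD+F+CCl4 mice and rose by 1.82 (SE 0.31, adjusted p = 0.027) in WD+F+CCl4. Lrp1 was 374 and 287 CPM in the 2 control mice, 864, 903 and 548 in the 3 HFD+F+CCl4 mice and 1033, 1003 and 787 across the 3 WD+F+CCl4 mice and rose by 1.77 (SE 0.33, adjusted p = 0.037). In both genes every model mouse lay above both control mice, and above T or NK cells of its own mouse by 596 to 1229 CPM for Cd68 and 449 to 856 CPM for Lrp1, against 355 and 479 and 241 and 357 CPM in the control mice. A finer clustering placed 2231 cells of HFD+F+CCl4 replicate 1, 0 control cells and 16 to 170 cells of each of the other 5 model mice in a macrophage cluster led by Rgs1, Fos and Gadd45g.

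In HFD+F+CCl4 macrophages edgeR called 0 receptors, with Cd68 at 1.5 (SE 0.31, adjusted p = 0.0623) and Lrp1 at 1.47 (SE 0.33, adjusted p = 0.0785), 5 of 10 at an unadjusted p under 0.05, and DESeq2 called 4. The shares of all genes called were 0.775% in HFD+F+CCl4 and 1.64% in WD+F+CCl4. The median log2 fold change over all genes was 0.56 and 0.59 in this fit and 0.02 and -0.03 with DESeq2, so the rises of Cd68 and Lrp1 are to be read against that shift. Leaving out control replicate 2 or any 1 WD+F+CCl4 mouse ended the WD+F+CCl4 calls, with 0 receptors called. Without control replicate 1 the only control was a sum of 19 cells and the median over all genes was above 6, so that fit is void.

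In classical monocytes Olr1 was 3.71 and 5.29 CPM in the 2 control mice, 15.8, 17.2 and 30.5 in the 3 HFD+F+CCl4 mice and 19.3, 24.3 and 24.7 across the 3 WD+F+CCl4 mice. All 6 model mice lay above both control mice, and T or NK cells held 0 to 6.71 CPM. It rose by 2.50 (SE 0.54, adjusted p = 0.0303) in HFD+F+CCl4, where 1 of 9 receptors and 4.48% of genes were called, and by 2.50 (SE 0.53, adjusted p = 0.0176) in WD+F+CCl4, where 2 of 9 receptors and 7.67% of genes were. The control values rest on 363 and 165 cells with 7 Olr1 UMIs in all, and neither call held without either control mouse or when each cell was named by itself. Cd68 was the other WD+F+CCl4 call, at 341 and 302 CPM in the 2 control mice, 430.3, 454 and 432 in the 3 HFD+F+CCl4 mice and 672, 496 and 478 across the 3 WD+F+CCl4 mice (0.80, SE 0.22, adjusted p = 0.0459). Less the T or NK level it was 252 to 453 CPM in the models and 269 and 322 CPM in the control mice, ranges that overlap, and the call did not hold in 6 of the 8 fits that left out 1 mouse. Msr1 in classical monocytes was 121 and 132 CPM in the 2 control mice, 110.0, 112 and 119 in the 3 HFD+F+CCl4 mice and 162, 124 and 87.5 across the 3 WD+F+CCl4 mice, with log2 fold changes of -0.11 and 0.04.

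Control and model classical monocytes also fell mainly in different clusters of the finer clustering. A cluster led by F13a1, Fn1 and AI839979 held 364 and 141 control cells and 1 to 12 cells of each model mouse. A cluster led by Vcan, Chil3 and Saa3 held 32 and 34 control cells and 282 to 3021 cells of each model mouse. Inside the second cluster Cd68 was 435 and 391 CPM in the 2 control mice and 439 to 795 CPM in the models, and Olr1 was 6.40 and 0 CPM against 15.1 to 27.9 CPM. The control values there rest on few cells, the differences inside that cluster were not tested, and the level per cell and the mix of these clusters cannot be told apart in the calls.

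In conventional dendritic cells Cd36 was 108 and 163 CPM in the 2 control mice, 66.2, 65.4 and 48.6 in the 3 HFD+F+CCl4 mice and 39.3, 25.7 and 62.9 across the 3 WD+F+CCl4 mice. Both control mice lay above all 6 model mice, and it fell in WD+F+CCl4 by 1.59 (SE 0.32, adjusted p = 0.016) on the log2 scale, while HFD+F+CCl4 did not pass (-1.10, SE 0.32, adjusted p = 0.0825). T or NK cells held 15.6 and 57.0 CPM in the control and 13.4 to 78.4 CPM in the model mice, below the dendritic level in 2 of 2 control and 2 of 6 model mice. The fall did not pass without either control mouse or without WD+F+CCl4 replicate 1.

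Cd68 in dendritic cells was 154 and 137 CPM in the 2 control mice, 287, 246 and 236 in the 3 HFD+F+CCl4 mice and 349.6, 285 and 259 across the 3 WD+F+CCl4 mice, a rise of 0.82 (SE 0.19, adjusted p = 0.0437) and 1.07 (SE 0.19, adjusted p = 0.0103). Its excess over T or NK cells was 104 to 130.5 CPM in the models and 105 and 135 CPM in the control mice. Lrp1 was 49.6 and 86.2 CPM in the 2 control mice, 193, 147 and 124 in the 3 HFD+F+CCl4 mice and 176, 218 and 128 across the 3 WD+F+CCl4 mice (1.32, SE 0.29, adjusted p = 0.0334, and 1.53, SE 0.29, adjusted p = 0.0122), with differences from T or NK cells of -15.0 to 24.9 CPM and of 32.8 and 39.6 CPM. Dendritic cells had median depths of 5836.5 and 1117 UMIs in control replicates 1 and 2 and 4663 to 6707 in the models. T or NK cells of the models had 2179 to 3085, and the part of depth in the excess was not tested. In neither gene did the excess of the models lie above that of both control mice, and the HFD+F+CCl4 calls did not hold without either control mouse or without HFD+F+CCl4 replicates 1 or 2. That of Cd68 was also lost when replicate 3 of HFD+F+CCl4 or replicate 2 of WD+F+CCl4 was left out, and that of Lrp1 when replicate 1 of WD+F+CCl4 was. In WD+F+CCl4 the Cd68 call was lost without control replicate 2 and the Lrp1 call without control replicate 1. In this type 2 of 9 receptors were called in HFD+F+CCl4 against 3.42% of genes, and 3 of 9 in WD+F+CCl4 against 8.4%.

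**Figure D4:**
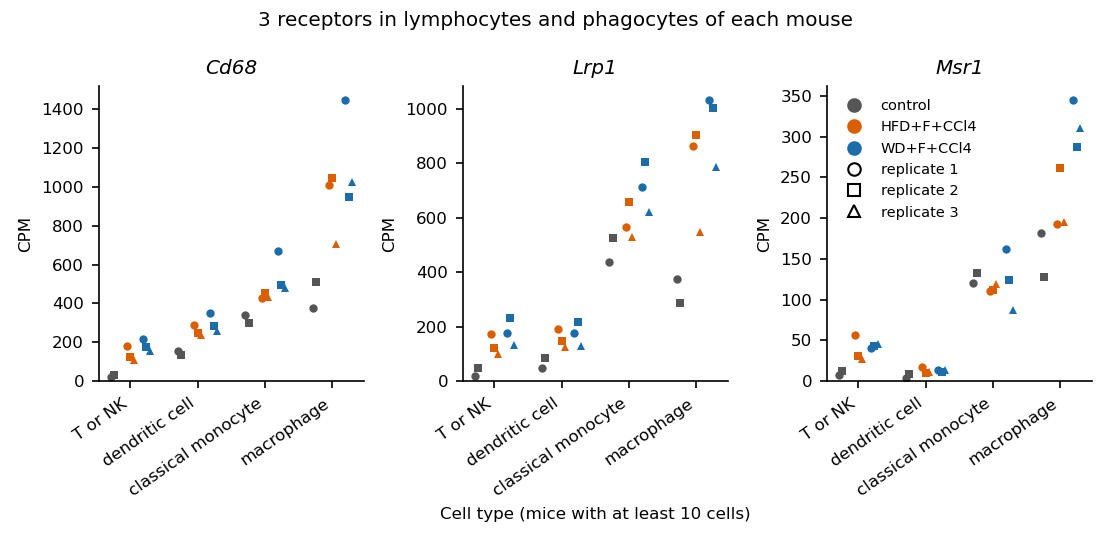
CPM of Cd68, Lrp1 and Msr1 in T or NK cells, dendritic cells, classical monocytes and macrophages of each mouse (at least 10 cells), on linear axes from 0. Colour gives the group and marker shape the replicate. T or NK cells of every model mouse sit above those of both control mice, and macrophages of every model mouse sit above both control mice for the 3 genes.

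In endothelial cells Cd68 was 22.3 and 0 CPM in the 2 control mice, 207, 219 and 140.3 in the 3 HFD+F+CCl4 mice and 273 and 118 across WD+F+CCl4 replicates 2 and 3, called in both models (3.30, SE 0.57, adjusted p = 0.0224, and 3.22, SE 0.60, adjusted p = 0.0335), 1 of 8 receptors where 1.56% and 1.32% of genes were. It differed from T or NK cells of the same mouse by -37.4 to 99.6 CPM in the models, and the calls did not hold without either control mouse, without HFD+F+CCl4 replicate 2 or with doublets removed. When 1 mouse was left out the changes ranged from 3.04 to 11.88 and from 2.66 to 11.82, highest without control replicate 1, when the only control was a library with 0 Cd68 UMIs in these cells. Stab1, which led in these cells, differed by -0.46 (SE 0.41, adjusted p = 0.743) and -0.53 (SE 0.45, adjusted p = 0.75), and Cd36 by 1.26 (SE 0.87, adjusted p = 0.644) and 1.41 (SE 0.93, adjusted p = 0.648). Neither passed.

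In plasmacytoid dendritic cells Lrp1 was called in both models (1.94, SE 0.44, adjusted p = 0.0201, and 2.72, SE 0.41, adjusted p = 0.000616), and Msr1 and Cd68 in WD+F+CCl4, 1 of 8 and 3 of 8 receptors against 3.97% and 8.04% of genes. Lrp1 lay within -25.5 to 44.8 CPM of the T or NK level of the same model mouse. Leaving out control replicate 1 ended these calls except that of Lrp1 in WD+F+CCl4, leaving out any 1 HFD+F+CCl4 mouse ended that of Lrp1 in HFD+F+CCl4, and the Cd68 call was also lost without control replicate 2 or WD+F+CCl4 replicate 1. In cholangiocytes edgeR called 0 of 8 receptors in both models, where 0.497% and 0.612% of genes were called, with 1 and 3 at an unadjusted p under 0.05 and 0 by DESeq2.

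**Figure D5:**
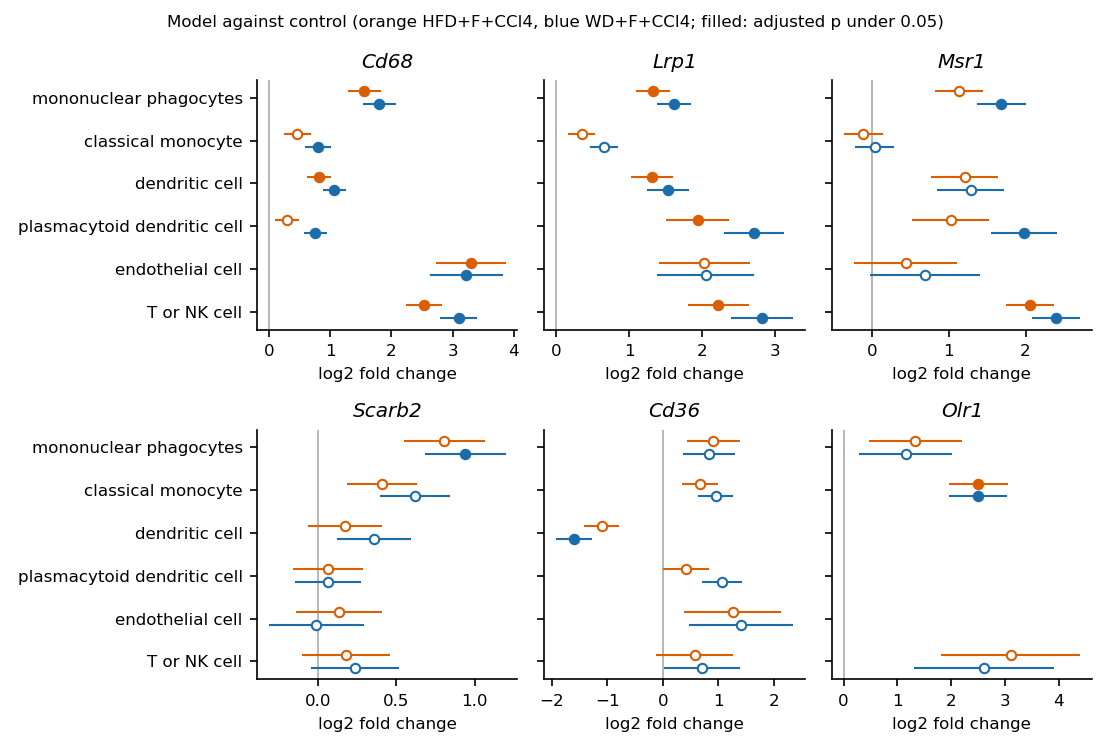
Log2 fold change against control of 6 receptors (panels) in mononuclear phagocytes and 5 cell types (rows), orange for HFD+F+CCl4 and blue for WD+F+CCl4. Bars are 1 SE, and filled points passed an adjusted p of 0.05. Cd68 in endothelial cells is at 3.30 and 3.22, where 1 control mouse held 0 UMIs, Lrp1 in T or NK cells is at 2.23 and 2.82, and the called change of Cd36 in dendritic cells is below 0 (-1.59).

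Over all kept cells, which weigh each cell type by its UMIs, 5 of 10 receptors were higher in HFD+F+CCl4, where 18.9% of genes were called, and the same 5 in WD+F+CCl4, where 21.4% were. They were Cd68, Lrp1, Msr1, Scarb1 and Olr1. Scarb1, which did not pass in the phagocytes, was 37.0 and 48.3 CPM in the 2 control mice, 90.8, 69.0 and 69.3 in the 3 HFD+F+CCl4 mice and 84.4, 78.7 and 88.4 across the 3 WD+F+CCl4 mice (0.96, SE 0.13, adjusted p = 0.00354, and 1.18, SE 0.13, adjusted p = 0.00153). Olr1 was 0.949 and 0.942 CPM in the 2 control mice, 5.76, 4.35 and 22.0 in the 3 HFD+F+CCl4 mice and 10.1, 9.99 and 6.01 across the 3 WD+F+CCl4 mice (3.64, SE 0.88, adjusted p = 0.0271, and 3.37, SE 0.87, adjusted p = 0.0314). When 1 mouse was left out the HFD+F+CCl4 change of Olr1 ranged from 2.43, without HFD+F+CCl4 replicate 3, to 4.04. Both Olr1 calls were lost without either control mouse, and that of WD+F+CCl4 also without WD+F+CCl4 replicate 1 or 2. Macrophages were 0.445% and 0.456% of control cells and 14.4% to 29.5% of model cells, a share that moved alongside these calls and whose part in them was not tested. Stab1, highest in endothelial cells, was 111 and 297 CPM in the 2 control mice, 485, 278 and 57.4 in the 3 HFD+F+CCl4 mice and 138, 111 and 414 across the 3 WD+F+CCl4 mice and overlapped between groups.

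Set against each other, the 2 models gave no call of a receptor. In WD+F+CCl4 relative to HFD+F+CCl4 edgeR called 0% of genes and 0 receptors, both in mononuclear phagocytes and in all kept cells. Of the 17024 and 19787 genes tested, 1095 and 767 had an unadjusted p under 0.05, and DESeq2 called 129 and 46 genes, none of them a receptor. The receptor changes in mononuclear phagocytes lay between -0.29 (Stab1, SE 0.57) and 1.82 (Marco, SE 1.75), and Msr1 was at 0.55 (SE 0.26). A fit over the model mice alone, added after the data were seen, also called 0 receptors in Kupffer cells, macrophages, patrolling monocytes, neutrophils and hepatocytes. In it Marco in Kupffer cells was at 1.67 (SE 0.71, adjusted p = 1) and Msr1 in macrophages at 0.54 (SE 0.17, adjusted p = 0.662). The share of all genes called in the fits over the model mice alone is not given here. Nothing is read from their 0 calls about the receptors. These results do not show that the models were alike.

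Genes that act with these receptors were tested in the same mononuclear phagocyte sums. Of 12 genes of lipid handling after uptake, 8 rose in HFD+F+CCl4 and 9 in WD+F+CCl4 and none fell, with medians of 1.42 and 1.71, where 7.16% and 12.1% of all genes tested were called. Inside single types fewer of the 12 were called, all higher. They were 3 and 5 in classical monocytes (4.48% and 7.67% of all genes), 1 and 5 in dendritic cells (3.42% and 8.4%) and 2 and 2 in endothelial cells (1.56% and 1.32%). In the phagocyte sums the mix of cell types and the level per cell cannot be told apart. Abca1, which exports cholesterol, rose most in both (3.20, SE 0.53, adjusted p = 0.0125 in HFD+F+CCl4 and 3.62, SE 0.54, adjusted p = 0.00536 in WD+F+CCl4). The others with the largest changes were Cd63 (2.85, SE 0.41, adjusted p = 0.00869), a late endosomal tetraspanin, Fabp4 (2.84, SE 0.30, adjusted p = 0.00345), a fatty acid carrier, and in WD+F+CCl4 Plin2 (3.11, SE 0.44, adjusted p = 0.00504), which coats lipid droplets.

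Of 9 ligands tested, 2 rose and 1 fell in HFD+F+CCl4, and 3 rose and 4 fell in WD+F+CCl4, with medians of 0.21 and -0.88, against the same 7.16% and 12.1% of all genes. Apoe, a ligand of Lrp1, rose (4.68, SE 0.65, adjusted p = 0.00789, and 4.34, SE 0.64, adjusted p = 0.00524), and so did Lpl, lipoprotein lipase, in HFD+F+CCl4 (1.82, SE 0.43, adjusted p = 0.0381). Apob (-2.71, SE 0.58, adjusted p = 0.0273, and -4.83, SE 0.62, adjusted p = 0.00413) and, in WD+F+CCl4, Pzp (-4.76, SE 0.82, adjusted p = 0.00858) fell. Apob and Apoa1 are themselves among the 8 hepatocyte markers, whose summed level in these cells was lower in the models.

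Of 12 other scavenger receptors, 2 rose in HFD+F+CCl4 and 1 in WD+F+CCl4, with medians of 0.33 and 0.22. These are 2 and 1 calls of 12 where 7.16% and 12.1% of all genes were called, so nothing is read from them about the list. Cd14, the lipopolysaccharide co-receptor, rose in both (3.04, SE 0.46, adjusted p = 0.00983, and 2.55, SE 0.46, adjusted p = 0.00985), and Cxcl16, which also binds oxidised LDL, in HFD+F+CCl4 (1.90, SE 0.47, adjusted p = 0.0442). Among other lipoprotein receptors and their adaptors, Lrpap1, a chaperone of Lrp1, rose in WD+F+CCl4 (0.94, SE 0.16, adjusted p = 0.00793). Between the models edgeR called 0 genes of these lists in the same sums.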

How the data were processed

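Single-cell RNA-seq of 8 mouse livers was analysed from 1 table of UMI counts deposited by the authors (whole numbers, not normalized), made with bcl2fastq 2.20 and, per the file headers, Cell Ranger 4.0.0, on GRCm38. The annotation release and any removal of doublets or free RNA were not given in the sources used here. Barcodes were assigned to mice by the suffix that the labels give, 0 per-sample columns were left unused, and the limits on barcodes were those of the study (500 genes, 25% mitochondrial UMIs).

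Cells were clustered with scanpy 1.11.5 and leidenalg 0.10.2 (2000 variable genes without the receptors and listed genes, 30 components, 20 neighbours, resolution 0.42, seed 1). A cluster took a name where its marker score was at least 1, at least 3 markers were found in a share of 0.1 of its cells, their level was within 1 log2 unit of the best cluster, and its top 10 genes did not hold markers of other types alone. That rule was set after the data were seen. Doublets were kept, except in an alternative that removed 6824 barcodes (0.8% per 1000 barcodes). Shares of cells with a UMI were taken after thinning to 1000 UMIs.

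UMI counts were summed per mouse and cell type (at least 20 cells) and tested over all genes with edgeR 4.0.16 (quasi-likelihood, TMM scaling, the 3 groups in a single fit, minimum count 10, Benjamini-Hochberg threshold 0.05). Alternatives were DESeq2 1.42.0, other scalings, no filter, only the 2 groups compared, a replicate block, leaving out each mouse, other limits (50 or 10 cells, 1000 genes, 10% mitochondrial UMIs), resolution 0.8, naming each cell by itself, and adding plasmacytoid dendritic cells and clusters led by hepatocyte genes to the mononuclear phagocytes. The limit of 10 cells, the fits over model mice alone and the fit without the 2 libraries richest in Kupffer cells were added after the data were seen. On simulated counts for HFD+F+CCl4 against control (16406 genes, 200 of them changed), the share recovered was 71.5% by edgeR, which made 7 false calls, and 73.5% by DESeq2, which made 10. The planted changes were larger than the receptor changes called in mononuclear phagocytes, and every gene had the same spread. These shares therefore do not give the power for changes of the size reported.

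The 10 receptors and all lists were chosen with earlier results of these data known. Besides the receptors, the text names up to 3 called genes of each list with the largest change and the 3 genes with the highest Pearson correlation of log2(CPM + 1) to each receptor, among genes with a mean of at least 20 CPM. Some genes that this rule would name, and the counts that need them, are not reported here.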

Additional observations from a re-analysis of the deposited data

Results flagged for a closer look

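In WD+F+CCl4 against control, Cd36 was on opposite sides of the control mice in a pair of cell types, with every model mouse higher than both control mice in classical monocytes (log2 fold change 0.95) and every model mouse lower in dendritic cells (-1.59). The change in classical monocytes did not pass (adjusted p = 0.0844). The level there, 47.9 to 65.8 CPM in the WD+F+CCl4 mice, overlapped with that of T or NK cells of the same mice, 46.9, 31.7 and 63.8 CPM. The difference between the cell types was not tested. In HFD+F+CCl4 against control, Msr1 was higher in every model mouse in T or NK cells (2.06) and in dendritic cells (1.21), and lower in every model mouse in classical monocytes (-0.11). Neither difference was tested, and in dendritic cells Msr1 lay below the level of T or NK cells in 6 of 6 model mice.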

How the results depend on the processing

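Counts of receptors called are compared here. The share of all genes called under each other setting is not given beside them. A change in these counts is therefore not read as a result about the receptors. In mononuclear phagocytes of HFD+F+CCl4 against control the 2 calls became 6 with DESeq2, 4 without the filter on low counts, 1 with only the 2 groups fitted and 4 with plasmacytoid dendritic cells and clusters led by hepatocyte genes added, and 0 to 5 when 1 mouse was left out (0 without either control mouse, 5 without HFD+F+CCl4 replicate 3). For WD+F+CCl4 the 4 calls ranged from 2 (without either control mouse) to 5 when 1 mouse was left out. In all kept cells the 5 WD+F+CCl4 calls became 8 with DESeq2. In single cell types the 11 HFD+F+CCl4 calls became 22 without the filter, 7 with only the 2 groups and 5 with doublets removed, and 3 to 13 when 1 mouse was left out. The 15 WD+F+CCl4 calls became 38 without the filter and 6 to 18 when 1 mouse was left out. The lowest values, 3 and 6, came without control replicate 1. In macrophages with at least 10 cells, HFD+F+CCl4 went from 0 to 4 with DESeq2 and ranged from 0 to 4 when 1 mouse was left out, and WD+F+CCl4 went from 2 to a range of 0 to 4, with 4 in each model without HFD+F+CCl4 replicate 3. Between the models in single cell types, 0 calls became 2 without the filter, 0 to 1 when 1 mouse was left out (1 without WD+F+CCl4 replicate 3) and 2 without both libraries richest in Kupffer cells. Signs were compared only for changes against control that were called in the main fit, and for Cd36 and Stab1 in mononuclear phagocytes. None of these changed sign, and receptors with changes near 0 were not checked. The causes of the changed counts were not tested. Fits that left mice out also had fewer mice, and the part of that was not tested. With a replicate block 2, 3 and 0 receptors were called in mononuclear phagocytes for HFD+F+CCl4 and WD+F+CCl4 against control and between the models, 4, 4 and 0 in all kept cells, and 10, 14 and 0 in single cell types. Mice of the 2 models with the same number had correlations of -0.27, -0.05 and -0.51 in their deviations from the group means. Pairs with unlike numbers had -0.38 to 0.48. Deviations from a mean of 3 mice depend on each other, so these values cannot show whether any mice were paired. Control depth, 6135827 and 36699315 UMIs, limits every comparison with control.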
